A study of Schizosaccharomyces pombe with 15 samples.

Results

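The flocculin genes of fission yeast (Schizosaccharomyces pombe) and cbf12 were examined for binding of 4 chromatin proteins. The 10 genes were gsf2, pfl2 to pfl9 and cbf12, taken by name from the RefSeq annotation of assembly ASM294v3, and all 10 were found among the 5089 protein-coding genes compared. Flocculins are glycoproteins of the cell surface by which yeast cells stick to one another and form clumps. Gsf2, also called Pfl1, is the main flocculin of this yeast and recognises galactose residues on neighbouring cells. Cbf12 is a transcription factor of the CSL family that promotes flocculation.

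Binding was mapped by chromatin immunoprecipitation with an antibody against the FLAG tag, followed by sequencing. All 15 samples, in 8 groups, were h90 cells with the alleles ade6-M210, leu1-32 and ura4-D18, grown in rich medium at 32 °C and kept for 2 h at 18 °C before fixation. Atf1 and Pcr1, bZIP factors that bind DNA as a heterodimer, were tagged as atf1-3xFLAG-hph and pcr1-3xFLAG-hph in a background labelled CenH{delta}::9xtetO-ura4, with 2 samples each. Deb1, a DNA-binding protein, was tagged as deb1-3xFLAG-hph, and Orc1, a subunit of the origin recognition complex, as orc1::5xFLAG-orc1-kan in a strain also labelled SPM1047, with 2 precipitations and 2 inputs each. The last 2 groups were 2 Atf1 precipitations from s1{delta}s2{delta} cells and 1 from an untagged strain, which were not analysed here as separate samples. Both samples of a protein carry 1 strain number, so they are not separate strains. Values come from 1 deposited peak list per protein, so no value below has a replicate or an error, read depth is unknown, and no test was made. Atf1, Pcr1, Deb1 and Orc1 had 1995, 1567, 351 and 1526 peaks. Fold below is the authors' fold enrichment at the peak, a value of that list and not comparable between lists; a rank is by fold within the list. The summit is the highest point of a peak. On chromosome 2 right of the mating-type region, which here touches pfl5 alone, about 12.2 kb were subtracted from list positions. In this stretch of chromosome 2 the ATF/CRE core TGACGT lay within 40 bp of 59 of 245 Atf1 and Pcr1 summits of at least 2.5-fold with that shift (24.1%) and of 3 without it (1.22%), and of 121 of 607 such summits on chromosome 1 with no shift (19.9%).

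A peak of at least 1 protein lay in the promoter window or the upstream region of 8 of the 10 genes, 33 peaks in all, against 42.6% of all genes. Among genes with an upstream region of at least 1000 bp it was 7 of 9, against 78.3%, so this count is near that of genes with such regions. The promoter window covered 1000 bp before and 200 bp after the annotated gene start, and the upstream region from the start to the next protein-coding gene. These starts are not alike. The coding sequence begins 2040, 1063 and 1615 bp after the start of gsf2, pfl2 and pfl4, while pfl6, pfl7 and pfl9 are annotated as partial and start with it. Peaks of all 4 proteins lay at gsf2, pfl2 and pfl5. Atf1, Pcr1 and Orc1 shared a place at pfl9, and Atf1 and Pcr1 one at cbf12. Orc1 alone was found at pfl7, Orc1 and a separate Atf1 peak at pfl3, and a low Atf1 peak at pfl4. No list had a summit at pfl6 or pfl8. The sequences of 4 of these places, and of 1 inside the coding sequence of pfl8, are given first, because they show which of the Atf1 and Pcr1 summits sit on the core TGACGT. They are RefSeq reference sequence of ASM294v3 in the direction of the gene. Capitals mark TGACGT or its complement ACGTCA, in the pfl9 place GTGGGAA, the word bound by CSL factors, and in the cbf12 flank also GGTAACA, a word that earlier work on these data read from Deb1 summits.
gsf2, chr3:967510-967737, minus strand: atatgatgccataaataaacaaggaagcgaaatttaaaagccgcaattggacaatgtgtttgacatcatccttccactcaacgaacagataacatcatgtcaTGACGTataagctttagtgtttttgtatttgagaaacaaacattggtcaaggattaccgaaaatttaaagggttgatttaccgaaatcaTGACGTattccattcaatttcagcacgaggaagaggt
pfl2, chr1:3991581-3991875, minus strand: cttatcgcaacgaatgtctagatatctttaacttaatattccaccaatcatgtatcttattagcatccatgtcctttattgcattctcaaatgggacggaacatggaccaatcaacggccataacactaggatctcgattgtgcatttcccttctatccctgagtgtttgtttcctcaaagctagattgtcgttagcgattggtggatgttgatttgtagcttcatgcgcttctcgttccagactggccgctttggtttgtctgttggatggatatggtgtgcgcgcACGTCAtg
pfl9, chr1:5525348-5525599, plus strand: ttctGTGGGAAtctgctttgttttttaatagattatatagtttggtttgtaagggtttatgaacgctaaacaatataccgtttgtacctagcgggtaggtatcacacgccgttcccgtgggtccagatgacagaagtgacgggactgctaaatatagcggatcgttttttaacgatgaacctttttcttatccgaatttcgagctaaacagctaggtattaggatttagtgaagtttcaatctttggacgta
pfl8 coding, chr1:101007-101143, plus strand: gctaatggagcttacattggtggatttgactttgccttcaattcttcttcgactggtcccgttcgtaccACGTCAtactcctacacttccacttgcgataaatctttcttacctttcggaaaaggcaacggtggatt
cbf12 summits, chr3:1870973-1871122, plus strand: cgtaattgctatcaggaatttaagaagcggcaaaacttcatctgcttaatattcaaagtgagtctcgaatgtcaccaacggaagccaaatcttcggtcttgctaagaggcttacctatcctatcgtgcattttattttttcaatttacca
cbf12 flank, chr3:1870454-1870564, plus strand: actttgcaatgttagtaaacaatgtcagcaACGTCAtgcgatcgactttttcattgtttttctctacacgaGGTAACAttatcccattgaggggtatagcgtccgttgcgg

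**Figure D1:**
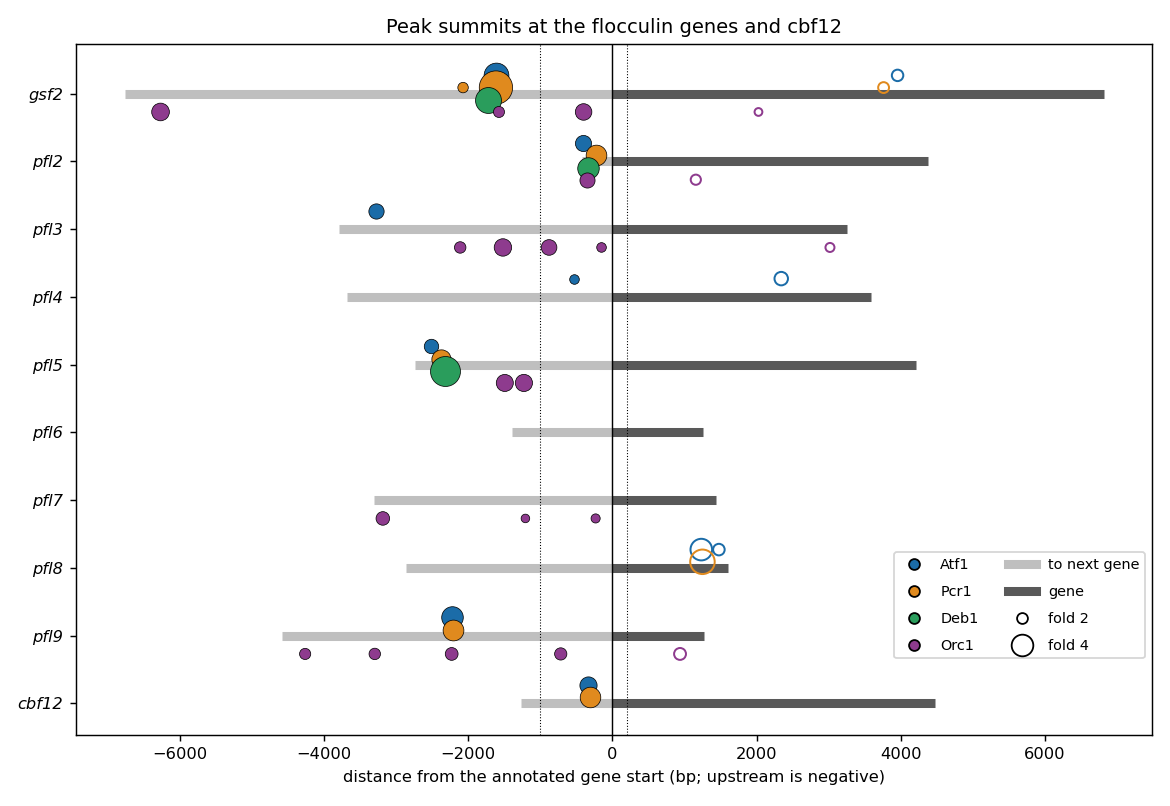
Position of every summit at the 10 genes, as distance from the annotated gene start in bp, with the area of a point growing with the square of the fold; dotted lines bound the promoter window, filled points are peaks of the window or upstream region and open points lie further inside the gene. The shared places of gsf2 (1573 to 2071 bp upstream), pfl2 (231 to 401 bp), pfl9 (2213 to 2229 bp) and cbf12 (305 to 334 bp) appear as stacks of points, and pfl6 and pfl8 have no filled point.

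The strongest Atf1 and Pcr1 binding among these genes was at gsf2, the gene of the dominant flocculin (SPCC1742.01, chromosome 3, 959199 to 966012, minus strand). The Pcr1 peak had a fold of 6.15 and was rank 13 of 1567, within the top 0.83% of its list. The Atf1 peak had a fold of 4.57 and was rank 78 of 1995. The summits were 1615 bp (Pcr1) and 1608 bp (Atf1) upstream of the start, outside the promoter window. Deb1 (4.78-fold, summit 1719 bp upstream, rank 139 of 351) and a weak Orc1 peak (2.04-fold, 1573 bp upstream, rank 908 of 1526) overlapped them. A second Pcr1 peak of 1.93-fold, 2071 bp upstream, overlapped the Atf1 interval alone. The 2 capitalised cores of the gsf2 sequence stand in the middle of this place, and the farther one is 5 bp from the Pcr1 summit and 12 bp from the Atf1 summit. Both cores lie on the strand of gsf2, 89 bp apart, and both are part of the same 11-base word TCATGACGTAT. This word occurred 2 times in the 3 chromosomes, on either strand, and both copies are these. The Atf1, stronger Pcr1 and Orc1 summits of the place lay inside SPNCRNA.1165, a non-coding RNA gene on the same strand as gsf2, and the other summits outside it. Its start was 76 bp from the Pcr1 summit and 83 bp from the Atf1 summit. The upstream region of gsf2 is 6764 bp long, the longest of the 10. It held 2 further Orc1 peaks, of 3.05-fold at 399 bp and of 3.26-fold at 6268 bp, the second closer to the start of SPCC1795.12C (497 bp) than to gsf2.

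pfl2, a flocculin gene of chromosome 1 (SPAPB15E9.01C, 3987033 to 3991412, minus strand), was the only one of the 10 with all 4 proteins inside the promoter window. The Atf1 peak had a fold of 2.98 and a summit 401 bp upstream of the start. Pcr1 had 3.82-fold at 231 bp, Deb1 3.97-fold at 343 bp and Orc1 2.79-fold at 347 bp. The Deb1 and Orc1 summits were thus within a few bases of each other. The upstream region is short, 417 bp to SPAPB15E9.02C, and is the least AT-rich of the 10 (53.7% A or T, against 68.3% at the median of the 10 and of all genes with an upstream region). A core, ACGTCA at the end of the pfl2 sequence, stood 58 bp from the Pcr1 summit and 228 bp from the Atf1 summit. The start of the coding sequence lies 1063 bp downstream of the annotated gene start. Measured from the coding start, none of these 4 summits lay in the promoter window of pfl2. The only summit in that window was of another Orc1 peak, inside the gene (1.88-fold, 1158 bp downstream of the start, rank 1128 of 1526).

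At pfl5 (SPBC1289.15, chromosome 2, 4421395 to 4425608, plus strand) the Atf1 and Pcr1 summits lay in a long terminal repeat, the flanking sequence of a retrotransposon. The Deb1 summit was 21 bp from it. The next gene upstream is the retrotransposon Tf2-11. The Deb1 peak had the highest Deb1 fold of the 10 genes, 5.53 (rank 71 of 351), 2317 bp upstream. Pcr1 (3.56-fold, 2380 bp) and Atf1 (2.67-fold, 2520 bp) overlapped it, and these 3 intervals touched the repeat. The Orc1 peak of the same place overlapped the Pcr1 interval alone and had its summit elsewhere, 1492 bp upstream (3.15-fold). A second Orc1 peak followed at 1227 bp (3.17-fold), and neither touched the repeat. The word GGTAACA stood in the repeat, with the shift applied 160 bp from the Deb1, 43 bp from the Atf1 and 97 bp from the Pcr1 summit. The listed offset of this Atf1 peak fell outside its interval, so its summit here is the midpoint of an interval of 418 bp. Of the 50-base words of the pfl5 upstream region 12.4% occurred more than once in the 3 chromosomes, and no source used here says how reads from such words were placed.

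pfl9 (SPAC186.01, chromosome 1, 5527692 to 5528959, plus strand) lies 50.2 kb from a chromosome end. An Atf1 peak of 3.98-fold (rank 169 of 1995) and a Pcr1 peak of 3.84-fold (rank 231 of 1567) had summits 2224 and 2213 bp upstream, and an Orc1 peak of 2.36-fold had its summit at 2229 bp. These 3 summits lay within 16 bp of each other. No TGACGT occurred in the whole upstream region of pfl9, 4583 bp long, while GTGGGAA stood 113 bp from the Atf1 summit. Orc1 had 3 more peaks at pfl9, at 716 bp (2.26-fold), 3296 bp (2.11-fold) and 4262 bp (2.06-fold), of which the last 2 were nearer to the start of SPAC869.01.

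The regulator cbf12 (SPCC1223.13, chromosome 3, 1871367 to 1875842, plus strand) had an Atf1 peak of 3.18-fold (rank 359 of 1995) and a Pcr1 peak of 3.80-fold (rank 236 of 1567), with summits 334 and 305 bp upstream. No Deb1 and no Orc1 peak lay there. The summits carried no TGACGT within 100 bp. The core of the flank sequence lay inside both intervals but 547 bp from the Atf1 and 576 bp from the Pcr1 summit, and GGTAACA followed it. The upstream region is shared with meu10, a divergent gene whose product takes part in building the spore wall, so the same peaks were 938 and 967 bp upstream of meu10. cbf11, the other CSL factor gene, had no summit of any list in its window or upstream region.

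Orc1 also made up most of the peaks of pfl3 and pfl7, as it did at pfl9. At pfl3 (SPBC947.04, chromosome 2) the 4 Orc1 summits were spread over the upstream region at 150, 878, 1518 and 2111 bp, with folds of 1.78, 2.89, 3.22 and 2.12, the last nearer to the start of naa38. The single Atf1 peak of pfl3 (2.82-fold) was 3277 bp upstream, touched a long terminal repeat and was nearer to the start of naa38 (625 bp). It overlapped a Deb1 peak of 6.04-fold whose summit, 616 bp away, lay beyond the upstream region of pfl3 and was not counted there. At pfl7 (SPBC359.04C, chromosome 2) the Orc1 folds were 1.69 at 232 bp, 1.59 at 1206 bp and 2.51 at 3184 bp, the last 130 bp from the start of abc3. The first 2 of these ranked 1363 and 1442 of 1526, near the foot of the list. pfl4 (SPCC188.09C, chromosome 3) had only an Atf1 peak of 1.78-fold, rank 1774 of 1995, with a summit 527 bp upstream and 30 bp from a long terminal repeat.

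pfl6 and pfl8, both on the left arm of chromosome 1, had no summit of the 4 lists in window or upstream region. pfl6 (SPAC977.07C) is 42.1 kb from the chromosome end, and 97.3% of the 50-base words of its upstream region and 96.0% of those of its coding sequence occurred more than once in the 3 chromosomes. For pfl8 (SPAC1F8.06), 99.8 kb from the end, this share was 39.3% upstream, where 2 long terminal repeats lie, and 0% in the coding sequence. Whether reads from repeated sequence were lost there was not tested. pfl8 was instead bound inside the gene. An Atf1 peak of 3.99-fold (rank 167 of 1995, chromosome 1, 100601 to 101196) and a Pcr1 peak of 4.52-fold (rank 142 of 1567, 100649 to 101185) had summits 1234 and 1250 bp downstream of the start, in the last part of the coding sequence. The core of the pfl8 sequence was 11 bp from the Atf1 summit and 5 bp from the Pcr1 summit. The summits were 73 and 57 bp from the start of SPNCRNA.607, a non-coding RNA gene antisense to pfl8. The 4 other Atf1 and Pcr1 peaks inside the 10 genes had folds of 2.00 to 2.49, lower than these within their lists, and lay in gsf2, pfl4 and pfl8. The 4 Orc1 peaks inside genes had folds of 1.44 to 2.20 and lay in gsf2, pfl2, pfl3 and pfl9.

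**Figure D2:**
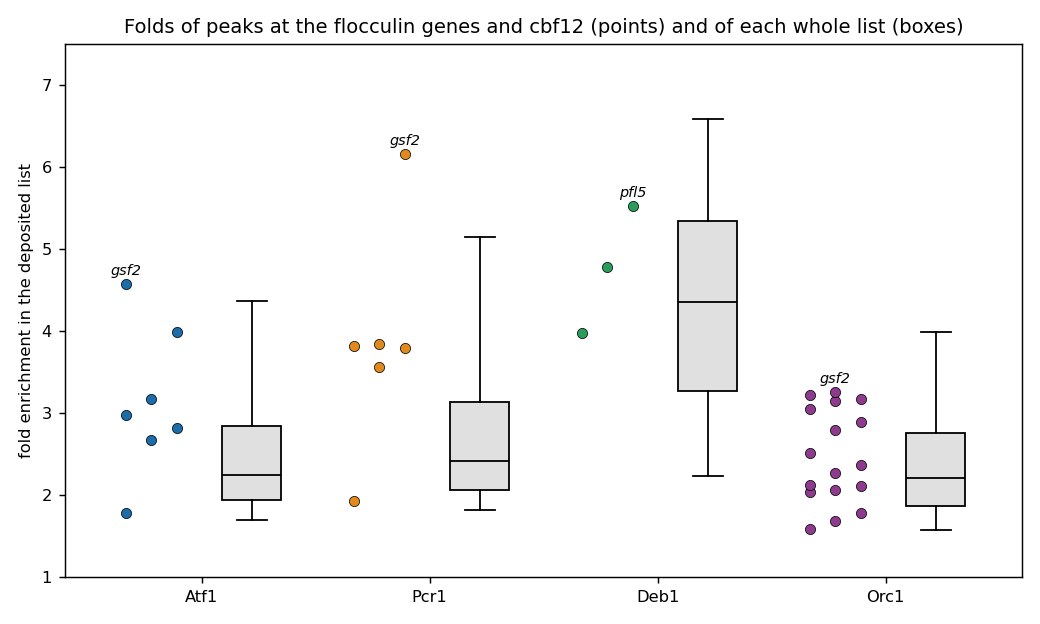
Fold enrichment in the deposited lists of the 7 Atf1, 6 Pcr1, 3 Deb1 and 17 Orc1 peaks at the flocculin genes and cbf12 (points) beside all peaks of the same list (boxes: quartiles and median; whiskers: percentiles 5 and 95). The gsf2 peaks are the highest Atf1 (4.57) and Pcr1 (6.15) points and lie above the upper whiskers, while the highest Orc1 point (3.26) lies below its upper whisker.

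Most of the Atf1 and Pcr1 peaks of these genes were higher than the middle of their list. The 7 Atf1 peaks had a median fold of 2.98, against 2.25 over the list, and 6 of the 7 were above the list's median. The 6 Pcr1 peaks had a median of 3.81, against 2.41 over the list, with 5 of 6 above. The 3 Deb1 peaks (median 4.78, list 4.35) and the 17 Orc1 peaks (median 2.36, list 2.21, with 10 of 17 above) lay close to the middle of their lists. Of the Atf1 peaks 5 of 7 overlapped a Pcr1 peak by at least 1 bp, and of the Pcr1 peaks 6 of 6 an Atf1 peak, where the whole lists gave 61.1% and 80.2%. Each of the 3 Deb1 peaks overlapped Atf1 and also Pcr1, where 75.2% of the Deb1 list overlapped Atf1 and 69.5% overlapped Pcr1. Of the 17 Orc1 peaks 3 overlapped an Atf1 peak (31.5% in the whole list), 4 a Pcr1 peak (28.9%) and 2 a Deb1 peak (7.21%). With summits required to lie within 100 bp of each other, 3 Atf1 and 3 Pcr1 peaks were still shared with one another. Under the same rule 1 Deb1 and 3 Orc1 peaks were still shared with Atf1. Shares of the whole lists were not counted under this rule. The 33 peaks formed 20 separate places, of which 13 held Orc1 alone, 2 Atf1 alone, 3 all 4 proteins, 1 Atf1, Pcr1 and Orc1, and 1 Atf1 and Pcr1. Places were not counted over the whole lists, so whether these numbers are particular to the 10 genes is not known. A place joins peaks that overlap in a chain, so not every pair of its peaks overlaps. In the pfl5 place with all 4 proteins, the Orc1 interval overlapped that of Pcr1 alone. One of the places with Atf1 alone is that of pfl3, which the uncounted Deb1 peak also overlapped.

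The number of bound genes among the 10 was read against the share of all protein-coding genes with a summit. In the promoter window Atf1 had a summit at 3 of the 10 (pfl2, pfl4 and cbf12), where the share of all genes was 26.3%. Pcr1 had one at 2 of 10 (pfl2 and cbf12), against 20.6% of all genes, and Deb1 at 1 of 10 (pfl2), against 6.23%. Orc1 had one at 5 of 10 (gsf2, pfl2, pfl3, pfl7 and pfl9), against 15.6%. With the upstream region included, Atf1 was at 7 of 10 against 30.7% of all genes, Pcr1 at 5 of 10 against 24.9%, Deb1 at 3 of 10 against 8.14% and Orc1 at 6 of 10 against 19.1%. Atf1 and Pcr1 were both at 5 of 10 (gsf2, pfl2, pfl5, pfl9 and cbf12), against 21.9% of all genes. All 4 proteins were at 3 of 10, against 2.89% of all genes, and no protein at 2 of 10, against 57.4%.

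**Figure D3:**
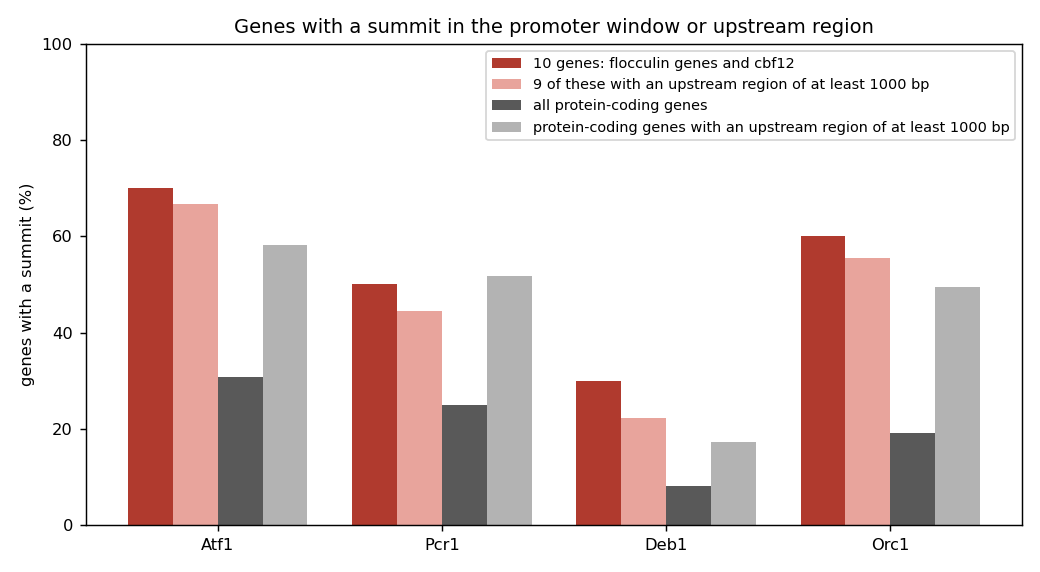
Percentage of genes with a summit in the promoter window or upstream region, per list, for the 10 flocculin genes and cbf12, the 9 of them with an upstream region of at least 1000 bp, all 5089 protein-coding genes, and the 1268 of these with such a region. The bars of the 10 genes stand above those of all genes (for Atf1 7 of 10 against 30.7%), and the bars for long upstream regions lie close together (Atf1 6 of 9 against 58.3%).

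Long upstream regions are a common feature of these genes, and a longer region can hold more peaks. The 10 regions had a median length of 3089.5 bp (417 to 6764 bp), against 524.5 bp over the 4634 genes that have such a region, and 2.87% of those were as long as the median of the 10. Of the 10 regions, 9 were at least 1000 bp long. Among genes with a region of that length, Atf1 was at 6 of the 9 flocculin genes and cbf12, against 58.3% of 1268 genes, Pcr1 at 4 of 9 against 51.7%, Deb1 at 2 of 9 against 17.3% and Orc1 at 5 of 9 against 49.4%. Atf1 and Pcr1 were both at 4 of 9 against 48.0%, all 4 proteins at 2 of 9 against 9.62%, and none at 2 of 9 against 21.7%. The counts of these 9 genes were thus near the share of all genes with a region of at least 1000 bp. Most of those genes (891 of 1268) had regions below 2000 bp, while 7 of the 10 regions here were at least 2000 bp long. In the 5 genes with a region of 2000 to 4000 bp (pfl3, pfl4, pfl5, pfl7 and pfl8), Atf1 was at 3, Pcr1 at 1, Deb1 at 1 and Orc1 at 3, against 79.2%, 74.9%, 26.1% and 69.0% of 303 genes. Each of these counts was below its share of that length, but 5 genes are too few to read a difference from. In the region of pfl8, 39.3% of the 50-base words occurred more than once in the 3 chromosomes. With regions of 4000 bp or more, gsf2 and pfl9 both had Atf1, Pcr1 and Orc1, and gsf2 had Deb1. The shares were 87.8% (Atf1), 85.1% (Pcr1), 86.5% (Orc1) and 41.9% (Deb1) of 74 genes.

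Per length of upstream region, Atf1 and Pcr1 summits were sparser at these genes than elsewhere. The 10 regions add up to 30.8 kb and held 0.227 Atf1 summits per kb (7 summits), where all upstream regions of at least 1000 bp held 0.420. Pcr1 had 0.195 per kb (6 summits) against 0.374, and Deb1 0.0973 per kb (3 summits) against 0.0980. Orc1 had 0.552 per kb (17 summits) against 0.451. Counted as peaks of all lists between the start and the next upstream gene, gsf2 had 7, and 1.59% of genes had at least as many. pfl9 had 6 (2.61%), pfl3 and pfl5 5 each (4.36%), pfl2 4 (7.86%), pfl7 3 (13.0%), cbf12 2 (22.3%), pfl4 1 (34.5%), and pfl6 and pfl8 0. The genes with the most such peaks were yox1 (65) and emc5 (48), whose regions span a centromere and are 51487 and 39194 bp long, then SPBPB7E8.01 and zfs1, which share 15, and but2 (14). Annotated long non-coding RNA genes covered 19 of the 33 summits (57.6%), against 58.6% of the 2165 summits in all upstream regions of at least 1000 bp.

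**Figure D4:**
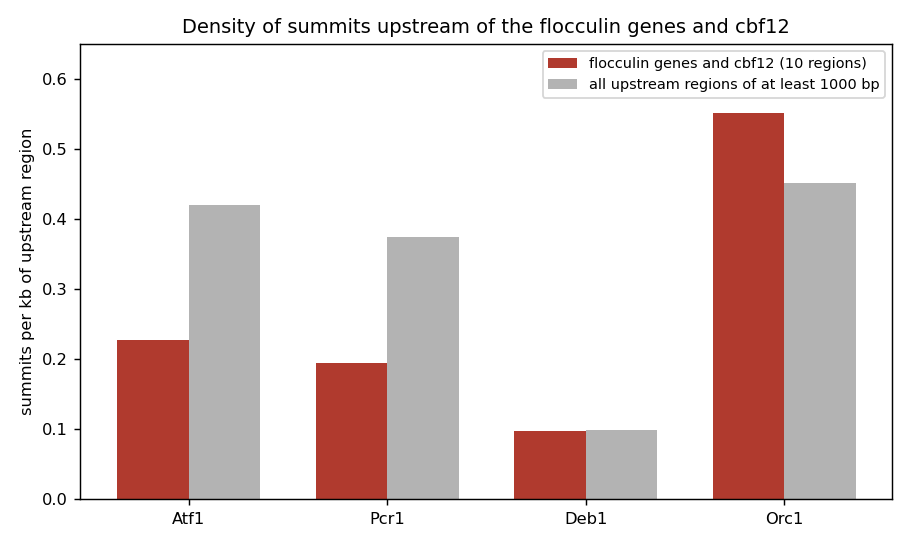
Summits per kb of upstream region, per list, for the 10 flocculin genes and cbf12 (30.8 kb in all) and for all upstream regions of at least 1000 bp. Atf1 (0.227 against 0.420) and Pcr1 (0.195 against 0.374) are lower at the flocculin genes and cbf12, Deb1 is close (0.0973 against 0.0980) and Orc1 higher (0.552 against 0.451).

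Motif words were counted on both strands. The core TGACGT was in the 1000 bp before the start of 3 of the 10 genes (gsf2, pfl2 and cbf12), against 14.9% of all genes, and GGTAACA in 2 (pfl6 and cbf12), against 12.9%. GTGGGAA was in none of the 10, against 5.84% of all genes. The heptamer ATGACGT, known as M26, holds the core and was looked at after the sequences had been seen. It was in the 1000 bp before the start of pfl2 and cbf12, against 2.83% of all genes, and both cores of the gsf2 place and the one inside pfl8 are copies of it. GGTAACA lay within 100 bp of 80 of 296 Deb1 summits and of 0 of the 2 Deb1 summits at gsf2 and pfl2. The core TGACGT lay within 100 bp of 1 of 6 Atf1 and 2 of 5 Pcr1 summits at the flocculin genes and cbf12, without pfl5, against 15.7% and 14.1% of all summits. In the same count, which left out the shifted stretch of chromosome 2, ATGACGT lay within 100 bp of 7.33% of 1609 Atf1 summits and 6.38% of 1269 Pcr1 summits. At the flocculin genes and cbf12 it lay near the same 1 of 6 Atf1 and 2 of 5 Pcr1 summits, which are at gsf2 and pfl2.

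Other genes of flocculation were bound in part. Of 17 regulator names looked up, 16 were matched (rfl1 was not), and 9 had a summit of at least 1 list in the window or upstream region, against 42.6% of all genes. Atf1 was at 8 of the 16 (30.7% of all genes), Pcr1 at 7 (24.9%), Deb1 at 3 (8.14%) and Orc1 at 4 (19.1%), with yox1 in each count. Of genes with an upstream region of at least 1000 bp these shares were 58.3%, 51.7%, 17.3% and 49.4%, but only some of the 16 have such a region. They are mbx2, gsf1, ldb1, adn2, yox1, lkh1 and tup11. Among them Atf1 was at all but tup11, and Pcr1 at all but adn2 and tup11. Deb1 was at gsf1, ldb1 and yox1, and Orc1 at these and tup11. gsf1, a transcription factor gene, had Atf1 (3.52-fold, 139 bp upstream) and Pcr1 (4.41-fold, 162 bp) near its start, with a Deb1 peak of 2.09-fold and an Orc1 peak of 3.01-fold further upstream. ldb1, also called adn1, had all 4 proteins 2194 to 2558 bp upstream, namely Atf1 at 3.26-fold, Pcr1 at 3.44-fold, Deb1 at 3.28-fold and Orc1 at 2.39-fold. mbx2, the gene of a MADS-box activator of flocculins, had only distant peaks (Atf1 2.15-fold at 2456 bp, Pcr1 2.28-fold at 3088 bp). sre2 (Atf1 3.16-fold, Pcr1 2.83-fold) and lkh1, a LAMMER kinase gene whose loss causes flocculation (Atf1 2.42-fold, Pcr1 1.99-fold), had both proteins in the promoter window. tup11, a corepressor gene, had Orc1 (2.55-fold), and adn2 a single Atf1 peak (2.64-fold, 1512 bp upstream). yox1 counted as bound by all 4 through its region of 51487 bp and had none in the promoter window. cbf11, adn3, tup12, srb8, med13, srb10 and srb11 had no summit.

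Among 18 genes of the cell wall and cell surface, Atf1 was in the window or upstream region of 10 (30.7% of all genes), Pcr1 of 9 (24.9%), Deb1 of 2 (8.14%) and Orc1 of 6 (19.1%). Several of the 18 have upstream regions of at least 1000 bp, and over all genes with such regions the shares were 58.3%, 51.7%, 17.3% and 49.4%. The 18 were not split by length, so neither set of shares is matched to them. The 4 genes named here had the largest value in any one list, which does not rank them across lists. They were gas2, a glucanosyltransferase gene (Atf1 4.66-fold, Pcr1 5.40-fold, Orc1 2.98-fold), exg1, a glucanase gene with all 4 proteins (Deb1 4.59-fold), ags1, the alpha-glucan synthase gene (Orc1 4.35-fold, 2937 bp upstream), and meu10, through the peaks it shares with cbf12. In the Atf1 list exg3 (3.62-fold), psu1 (3.19-fold) and gas5, picked after their values were seen, stood above meu10 (3.18-fold).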

How the data were processed

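The 4 peak lists came from FLAG precipitations. Per the submitters' processing notes the tools were MACS2 2.1.2, Bowtie 1.2.3 and bedtools. Settings, controls, pooling and genome build are not given in the sources used here. Per narrowPeak columns, the authors deposited for each peak a fold enrichment (ratio), −log10 p and q values, a score and a summit offset. The summit was start plus offset, or the midpoint where the offset fell outside the interval. The midpoint was used for 129, 113, 93 and 109 peaks of Atf1, Pcr1, Deb1 and Orc1. Among the 33 described it was used for 2, Atf1 at pfl5 and Orc1 at pfl7, 1206 bp upstream. Genes and sequence are from ASM294v3. List positions reach 4551989 on chromosome 2, whose assembly length is 4539804, hence the shift of about 12.2 kb to the right of the mating-type region, around which 24 genes were left out. Shares over all genes are descriptions, since 1 list per protein gives no replicate. Assignment of peaks was tested on simulated peaks (Python 3.11.15, pandas 2.3.3). The genes, lists and words were chosen with earlier results of these data known. Named were the 10 genes, regulators with a summit (1 is counted but not reported here), 4 wall genes of highest fold and the 5 genes with most upstream peaks. Alternatives covered thresholds, summit, start, window, overlap, next gene and shift.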

Additional observations from a re-analysis of the deposited data

How the results depend on the processing

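Of 103 alternative values, 81 stayed within 1.5 times the value reported and 22 were lower, none higher. With a −log10 q of at least 10 the shares of all genes in the promoter window were 12.3% (Atf1), 10.0% (Pcr1) and 10.1% (Orc1), while the counts of the 10 genes stayed within 1.5 times. With a fold of at least 3, Atf1 was at 1 of the 10 genes in the promoter window, Pcr1 at 2, Deb1 at 1 and Orc1 at 1. The shares of all genes in that window were 7.55%, 7.96%, 5.5% and 3.48%. With the upstream region these counts were 3, 5, 3 and 3. Shares of all genes with the upstream region were not counted for this or any other alternative. From the coding start, Atf1 was at 1, Pcr1 at 1, Deb1 at 0 and Orc1 at 5 of the 10 genes in the promoter window. The shares of all genes were 23.7%, 18.5%, 5.52% and 14.1%. At gsf2 and pfl2 the Orc1 peak in this window was another one, inside the gene. With the upstream region the counts from the coding start were unchanged, at 7, 5, 3 and 6. A window of 500 bp gave an Orc1 share of 9.75%. Ending the upstream region at the next gene of any type left Atf1 at 3, Pcr1 at 2, Deb1 at 1 and all 4 proteins at 1 gene, by construction of shorter regions. With summits within 100 bp, 3 Atf1 peaks were shared with Pcr1, 3 Pcr1 with Atf1, 1 Deb1 with Atf1 and 3 Orc1 with Atf1. Shares of the whole lists were not counted under this rule. Leaving out the 5 peaks that touch a long terminal repeat, an alternative chosen after seeing the data, left Atf1 at 4 genes and all 4 proteins at 2. No paired analysis was possible because each protein has 1 list and no list carries a replicate. With depth unknown, a gene without a peak is not shown to be unbound.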
